A study of Homo sapiens with 6 samples.

Results

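Cluster 0 of the A375 cells is a group of 394 cells that the authors' deposited cell table places in its cluster 0 at a clustering resolution of 0.4. The members were chosen by that column alone and matched by cell name to the count table. They were 394 of the 5059 A375 cells listed in the cell table, or 7.79% (95% exact binomial interval 7.06 to 8.56). A375 is an established human melanoma line with a mutant BRAF kinase, and dabrafenib is a drug that inhibits mutant BRAF. Every population compared here came from this line, and the adapted populations were generated by escalating dabrafenib. The adapted populations are named by their dose, from 30, 60 and 125 nM through 250 and 500 nM to 1, 2 and 4 µM, and the control received no drug. Each population was 1 culture, marked with a CellPlex tag and pooled with the others for droplet sequencing from the 3′ end of transcripts. No population was repeated, so all values below are from 1 culture each, no test across cultures was possible, and every interval covers counting error only. The cell names do not separate the 2 sequencing runs of the A375 pool.

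Mutant BRAF keeps the MAPK pathway active through the kinases MEK and ERK. ERK activity raises feedback regulators such as the Sprouty and dual-specificity phosphatase genes, the ETV transcription factors and cyclin D1, and it also drives immediate early genes such as EGR1 and the AP-1 family through serum response factor at CArG boxes. Melanoma cells under BRAF inhibition are known to shift among melanocytic, neural crest-like and mesenchymal programmes. The markers named for cluster 0 are NTM, SOX11 and SHISA2. NTM encodes neurotrimin, a cell adhesion molecule of neurons, and SOX11 encodes a SOXC transcription factor of progenitor cells. SHISA2 encodes a protein that restrains FGF and WNT receptors.

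The count table held 8505 cells, 15945 genes and 87053189 unique molecular identifiers (UMIs, each a counted transcript molecule). Totals, gene numbers and mitochondrial percents of all 5059 listed cells matched it, the percents within 0.001. No cell barcode was shared between populations. The listed share was 22.0% of untreated cells (442 of 2011) and from 62.4% to 81.2% in the other populations.

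Cluster 0 consisted mainly of untreated cells. Of its 394 cells, 343 were untreated (87.1%, interval 83.3 to 90.2), and these were 77.6% (73.4 to 81.4) of the 442 listed untreated cells. The 60 nM population supplied 38 cells, which were 4.19% (2.98 to 5.71) of its 906 listed cells. The 125 nM population supplied 6 of 306 cells (1.96%). The 30 nM population supplied only 2 of 478 cells (0.418%), so the share among adapted cells did not follow the order of the doses. The 250 nM population gave 2 of 733 cells, and the 500 nM, 1 µM and 2 µM populations gave 1 cell each. The 4 µM population gave 0 of 455 cells, which allows a share of up to 0.659% by a floor of 3 cells, or 0.807% by the upper bound of the exact interval. Together 51 of 4617 listed adapted cells (1.10%, 0.824 to 1.45) were in cluster 0. The untreated cells listed outside it were 69 in cluster 1, 15 in cluster 3, 11 in cluster 2, 3 in cluster 6 and 1 in cluster 7. Because 1569 untreated cells were not in the cell table, these shares describe listed cells and not the untreated culture.

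**Figure D1:**
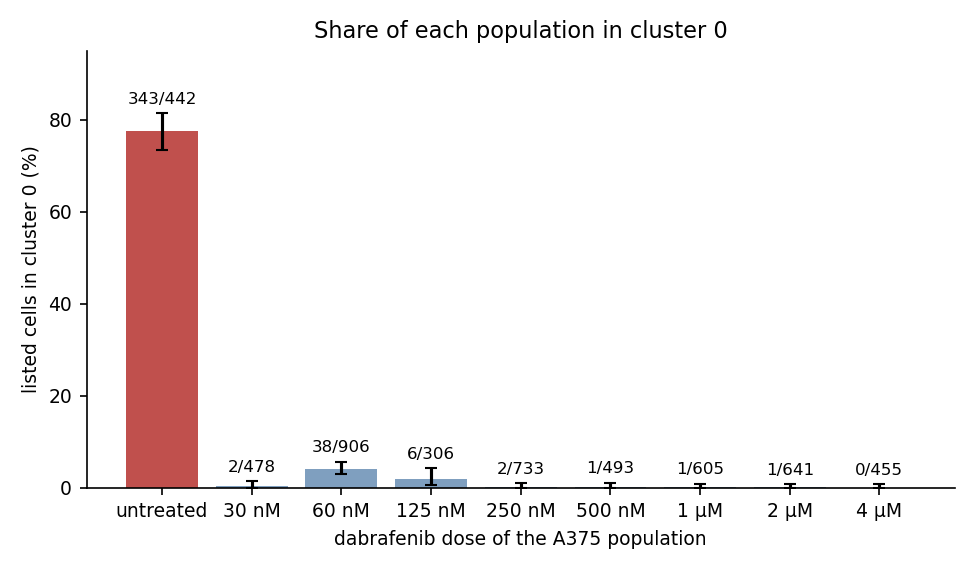
Share of the listed cells of each A375 population that lay in cluster 0, in percent (bars), with 95% exact binomial intervals and the cells in cluster 0 over the cells listed above each bar. The untreated population stands at 77.6%, 60 nM at 4.19%, and every other adapted population at 1.96% or lower.

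The deposited name of the cell table includes g1, possibly for the cycle phase, so cycle genes were compared between listed and unlisted cells. The 26 S-phase genes summed to 454 CPM (UMIs of a gene per 1000000 UMIs of the group) in untreated cells of cluster 0 and to 2069 CPM in untreated cells that the table does not list. The 26 G2 and M-phase genes summed to 343 CPM and 3877 CPM in the same groups. MKI67, which encodes the proliferation antigen Ki-67, was at 29.1 CPM in untreated cells of cluster 0 and 321 CPM in the unlisted ones. Untreated cells of cluster 0 were thus lower for cycle genes than unlisted untreated cells, although no source used here says by what rule cells were listed. Melanocyte-lineage genes summed to 758 CPM in cluster 0 and 696 CPM in the other listed cells. Of the markers of cells foreign to a melanoma culture, PTPRC, CD3D and CD14 of immune cells, CDH5 of endothelium and COL1A2 of fibroblasts had 0 UMIs in cluster 0. The immune markers summed to 10.9 CPM in cluster 0 and 24.6 CPM in the other cells, and the endothelial ones to 5.77 and 4.78 CPM. LYZ, with 14 UMIs, was at 4.25 against 1.25 CPM and PECAM1, with 11 UMIs, at 3.34 against 1.46 CPM, both higher in cluster 0. The summed fibroblast markers were at 13.7 CPM, against 62.7 CPM in the other cells. Epithelial markers summed to 434 CPM and 696 CPM, mostly from the keratin KRT18 (380.3 and 610.2 CPM), with EPCAM at 0.607 and 1.11 CPM.

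A cell of cluster 0 had a median of 8192 UMIs (range 1738 to 18754), 3388 detected genes and 5.65% mitochondrial UMIs. The other listed cells had medians of 8693 UMIs, 3283 genes and 6.62%. Depth differed more among the untreated cells: those in cluster 0 had a median of 8319 UMIs, and the 99 listed outside it had 13253. Each cell was also set against the median UMIs of all cells of its own population, listed or not. No cell of cluster 0 had more than 2 times that median. The share was 2.27% of the other listed cells, 5.05% of untreated cells listed outside cluster 0 and 8.67% of unlisted untreated cells. The part of these depth differences in the results below was not tested.

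The 3 named markers were higher in cluster 0 than in each other cluster, whereas untreated cells inside and outside it differed by at most 1.43-fold (SOX11). NTM lies on chromosome 11 (chr11:131370478-132336822, plus strand), SOX11 on chromosome 2 (chr2:5692667-5701385, plus strand) and SHISA2 on chromosome 13 (chr13:26044597-26051031, minus strand), by GENCODE version 29 on GRCh38. Since the genes were part of the clustering, the levels below are a description. NTM was at 70.4 CPM in cluster 0 (95% exact Poisson interval 61.6 to 80.1), 26.6 (23 to 30.5) in cluster 1, 15.7 in cluster 2 and 16.1 in cluster 3. In clusters 4 to 7 it was at 2.03, 0.699, 1.63 and 1.22 CPM. SOX11 was at 44.3 CPM in cluster 0 (37.4 to 52.1), 29.9 in cluster 1 (26.1 to 34.1), 9.34 in cluster 2 and at most 5.69 in clusters 3 to 7. For SHISA2 the values were 33.1 CPM in cluster 0 (27.2 to 39.9), 15.3 in cluster 1 (12.7 to 18.4), 6.40 in cluster 2 and at most 2.24 in the rest. For each marker, cluster 0 was the highest and cluster 1 the next, and the counting intervals of the pair did not overlap.

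Split by population, the same markers followed the untreated culture. NTM was at 75.4 CPM (65.8 to 86.1) in untreated cells of cluster 0 and at 82.2 CPM (64.6 to 103) in untreated cells of cluster 1. These neighbours at the top of the order did not differ beyond counting error. The next groups for NTM were the 500 nM cells of cluster 2 at 46.6 CPM (32.8 to 64.2) and the 60 nM cells of cluster 0 at 43.3 CPM (22.4 to 75.7), whose intervals overlapped widely. SOX11 was at 46.6 CPM (39.1 to 55.2) and 41.6 CPM (29.5 to 57.1) in untreated cells of clusters 0 and 1, then at 29.4 CPM (24.4 to 35.1) in 60 nM and 28.9 CPM (21.1 to 38.7) in 125 nM cells of cluster 1, and at 21.7 CPM (7.95 to 47.1) in 60 nM cells of cluster 0. SHISA2 was at 35.3 CPM (28.8 to 42.8) and 34.0 CPM (23.1 to 48.2) in untreated cells of clusters 0 and 1, and at 18 CPM (5.86 to 42.1) and 16.9 CPM (13.1 to 21.4) in 60 nM cells of clusters 0 and 1. For both genes the 60 nM groups had overlapping intervals. Unlisted untreated cells also held the markers, with NTM at 93.4 CPM, SOX11 at 47.3 CPM and SHISA2 at 24.9 CPM. Inside cluster 0, untreated cells held 220 NTM UMIs and 60 nM cells 12, while the other adapted cells of the cluster held 0 in each of their 6 populations. The adapted cells of cluster 0 pooled together were at 31.7 CPM for NTM, 2.38-fold lower than the untreated ones (1.34 to 4.68), 26.4 CPM for SOX11 (1.77-fold lower, 0.931 to 3.77) and 15.8 CPM for SHISA2 (2.23-fold lower, 0.990 to 6.21).

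**Figure D2:**
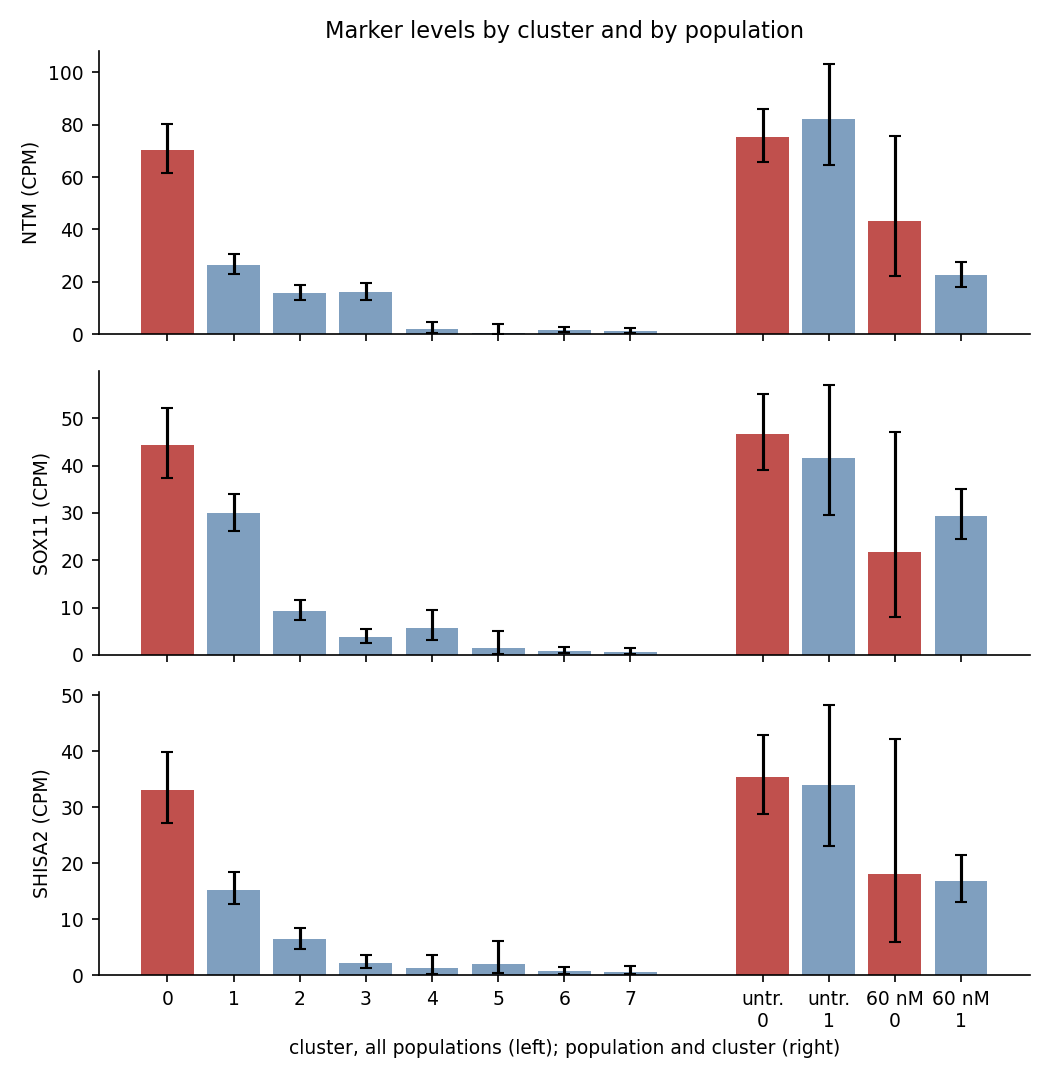
Levels of NTM, SOX11 and SHISA2 in CPM (bars) with 95% exact Poisson intervals, by cluster on the left and for untreated and 60 nM cells of clusters 0 and 1 on the right, with cluster 0 in red. Untreated cells of clusters 0 and 1 have overlapping intervals for each marker, as at 75.4 and 82.2 CPM for NTM.

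Most cells of cluster 0 had no UMI of any single marker. After thinning each cell to 4000 UMIs, which left out 11 cells of cluster 0 and 336 of the others, 20.6% of cluster 0 cells had an NTM UMI, against 3.44% of the other cells and 0.393% in cluster 7, taken as the background because its marker levels were near 0. Without thinning the shares were 37.1%, 6.0% and 1.03%, at median depths of 8192, 8693 and 8848 UMIs. SOX11 was seen in 17.8% of thinned cluster 0 cells and 2.98% of the others (28.7% and 5.96% unthinned), and SHISA2 in 10.7% and 1.41% (20.1% and 3.39%). At least 1 of the 3 was seen in 41.0% of cluster 0 cells, 21.1% of cluster 1, 7.30% of all other cells and 0.524% of cluster 7. By population the share was 42.6% in untreated cells of cluster 0, 43.5% in untreated cells of cluster 1, 28.6% in 60 nM cells of cluster 0 and 21.7% in 60 nM cells of cluster 1. At least 2 markers were seen together in 28 of 383 thinned cells of cluster 0 (7.31%).

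Over 24 groups of 1 cluster and 1 population, the genes whose log2 level was most like each marker were found among 8663 genes. For NTM they were SH3PXD2A (Pearson r 0.93), ITPK1 (0.88), FAM89A, KIAA1217 and FLT1 (0.87 each). SOX11 was most like NPAS2 and TGFA (0.93 each) and SLCO4A1, ELOA and ISG20 (0.92 each), and SHISA2 most like CCND1 (0.90), TFAP2C, FREM1 and GNAS (0.88 each) and ACOT7 (0.85). These groups share populations, a library and depth, so the coefficients are a description.

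Against all other listed cells, cluster 0 was 2-fold higher on the log2(CPM + 1) scale for 296 of 9714 measured genes (3.05%) and 2-fold lower for 435 (4.48%). A gene was measured when the higher side had at least 10 CPM and 20 UMIs. The median log2 ratio of all measured genes was 0.10. With TMM scaling, which sets that median to 0.00, the counts were 221 higher and 507 lower, so that higher genes were 30.4% of those past 2-fold in place of 40.5%. Among genes with at least 50 CPM, 159 were higher (3.69%) and 161 lower (3.74%). Among genes with at least 25 CPM, the highest ratios were those of the receptor GPR153, at 29.4 CPM against 3.25 (9.07-fold, 95% counting interval 6.92 to 11.8), and the matrix gene FREM1, at 27.3 against 3.36 (8.12-fold, 6.17 to 10.6). SHISA2 (7.07-fold), NTM (6.48-fold), MKI67 (5.64-fold), SOX11 (5.35-fold), IGFBP2 (5.27-fold) and SPRY4 (4.87-fold) came next, followed by the hyaluronidase CEMIP (4.73-fold), FRMD4B (4.70-fold), the phosphatase UBASH3B (4.60-fold) and the transcription cofactor EYA1, at 425 against 98.5 CPM (4.32-fold, 4.06 to 4.59). The lowest ratios were of CADM2, an adhesion molecule, at 0.607 against 76.9 CPM (127-fold lower), RARRES2, which encodes the chemokine-like protein chemerin and had 1 UMI in cluster 0 (92.2-fold, 16.5 to 3646), the melanin enzyme gene DCT at 1.82 against 76.6 CPM (42.0-fold, 19.3 to 115) and SOX9 at 0.607 against 21.8 CPM (35.8-fold lower). BRAF itself (chr7:140719327-140924928, minus strand) was at 121 and 117 CPM (1.04-fold, 0.938 to 1.15).

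Feedback targets of the MAPK pathway were higher in cluster 0 than in the other cells. Of 22 listed genes 20 were measured, 6 were 2-fold higher and 2 were 2-fold lower, 17 lay above 0 and 3 below, and their median log2 ratio was 0.64 against 0.10 for all genes. SPRY4, which encodes a Sprouty feedback inhibitor, was at 181 against 37.2 CPM (4.87-fold, 4.43 to 5.36). The transcription factor gene ETV4 was at 88.0 against 22.7 CPM (3.87-fold, 3.38 to 4.42). CCND1, which encodes cyclin D1, was at 413 against 134 CPM (3.08-fold, 2.90 to 3.27). DUSP4, which encodes an ERK phosphatase, was at 142 against 59.0 CPM (2.40-fold). DUSP6, another ERK phosphatase gene, was at 161 against 128 CPM (1.26-fold, 1.15 to 1.38), under 2-fold. FOSL1 was lower, at 179 against 217 CPM (1.21-fold). EGR1 and the phosphatase gene DUSP5 were the 2 members lower by more than 2-fold, so the list did not move as a unit.

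**Figure D3:**
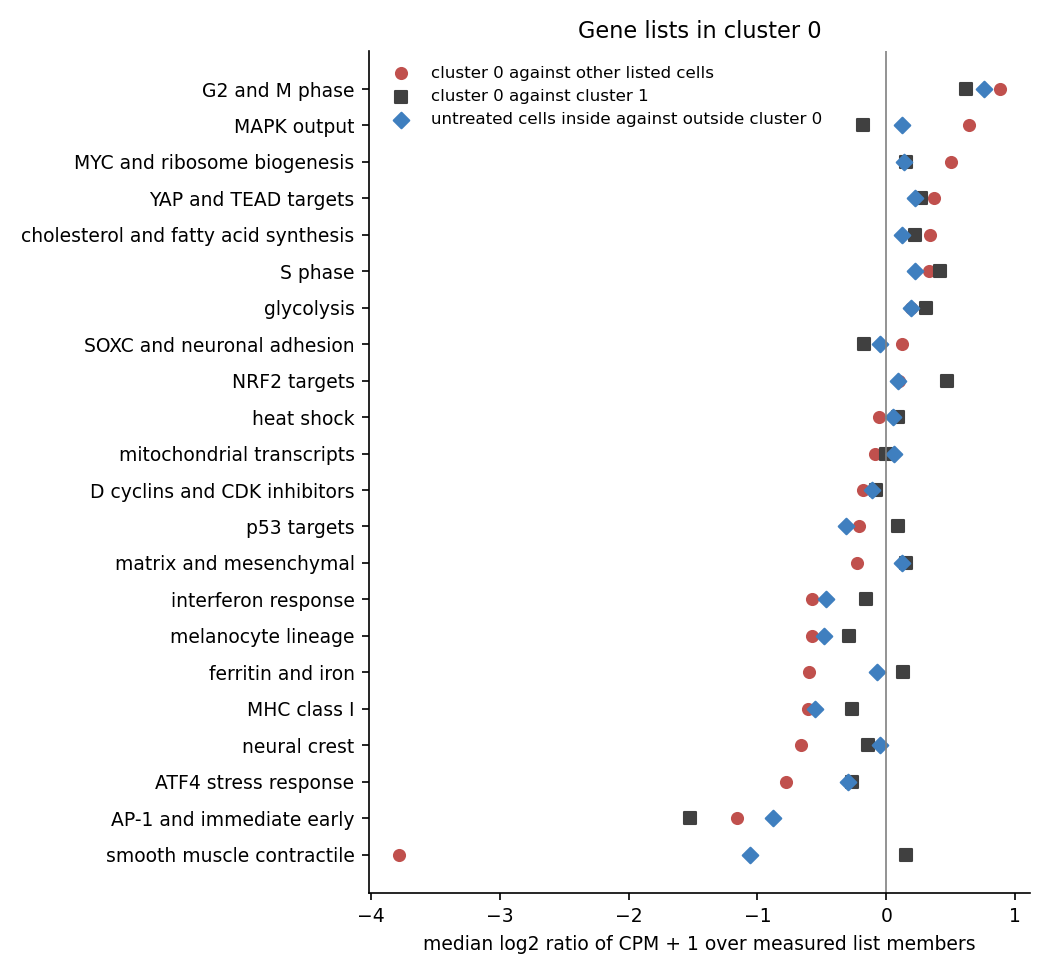
Median log2 ratio (CPM + 1) over the measured members of each gene list with at least 5 of them, for cluster 0 against all other listed cells (red circles), against cluster 1 (dark squares) and for untreated cells inside against outside it (blue diamonds), with a grey line at 0. Against all others, MAPK output lies at 0.64, AP-1 and immediate early genes at -1.16 and smooth muscle contractile genes at -3.78, while against cluster 1 the smooth muscle list lies at 0.15.

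The immediate early genes ran in the other direction from the Sprouty and ETV genes. The list of 10 AP-1 and immediate early genes had 9 measured members, all 9 below 0 and 6 of them past 2-fold, and its median was -1.16. JUNB was at 144 CPM in cluster 0 and 424 in the others (2.94-fold lower, 2.69 to 3.23), IER2 at 256 and 596 (2.33-fold), FOSB at 100.2 and 228 (2.28-fold) and FOSL2 at 7.28 and 27.8 (3.81-fold). EGR1, which encodes an immediate early zinc finger factor and stood in the MAPK list, was at 27.0 and 118 CPM (4.38-fold lower, 3.55 to 5.46). EGR1 lies at chr5:138465490-138469315 on the plus strand. Its 250 bases upstream of the start (RefSeq, GRCh38.p14, chr5:138465229-138465478, plus strand) are shown because EGR1 divides the populations within cluster 0, described further on. Capitals mark the 2 CArG boxes, the letters to which serum response factor binds, which begin 105 and 83 bases before the start.
EGR1: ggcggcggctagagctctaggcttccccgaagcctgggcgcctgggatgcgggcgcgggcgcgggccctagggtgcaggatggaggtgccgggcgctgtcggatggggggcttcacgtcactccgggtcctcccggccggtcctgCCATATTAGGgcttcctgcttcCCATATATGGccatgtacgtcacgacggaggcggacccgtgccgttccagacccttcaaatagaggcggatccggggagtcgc
A CArG box was found on either strand in 407 of 35116 RefSeq promoter windows of this length (1.16%). It was in 1 of 23 windows of the MAPK list (EGR1), 1 of 12 of the AP-1 list (EGR2) and 2 of 16 of the smooth muscle list (ACTG2 and SMTN). These windows cover 12 of 22 MAPK genes, 9 of 10 AP-1 genes and 8 of 13 smooth muscle genes, and TAGLN and MYL9 were not among those searched.

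The difference was seen cell by cell. In cells thinned to 4000 UMIs, a cluster 0 cell held a median of 3 UMIs of the AP-1 list (quartiles 2 and 6), against 9 in the other cells, 12 in cluster 1 and 15 in cluster 2. Of the MAPK list it held a median of 12 UMIs (quartiles 10 and 16), against 14 in cluster 1, 9 in cluster 2 and from 4 to 6 in clusters 3 to 7. Cluster 0 therefore had the lowest median of the AP-1 list of any cluster and the second highest of the MAPK list. EGR1 was seen in 11% of thinned cluster 0 cells and 35.1% of the others, and JUNB in 34.2% and 72.0%. No cluster lacked these 2 genes, so no background share could be set for them.

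**Figure D4:**
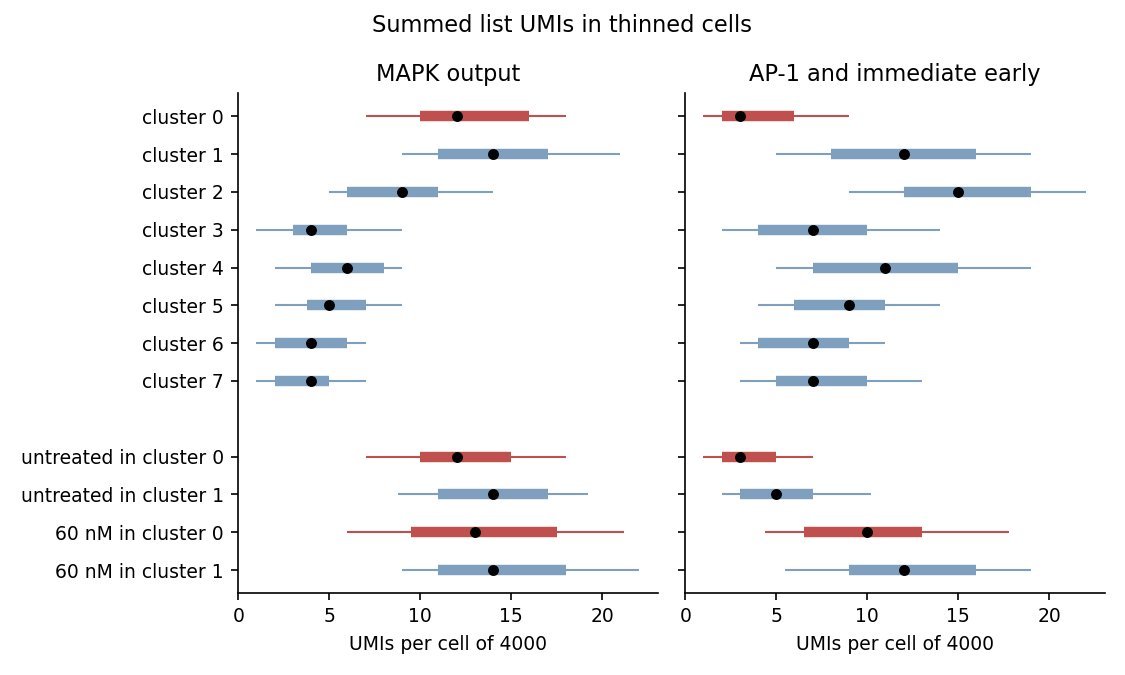
UMIs per cell summed over the MAPK list and the AP-1 list after thinning each cell to 4000 UMIs, with the median (dot), quartiles (thick bar) and the range from the 10th to the 90th percentile (thin line), and cluster 0 in red. Cluster 0 lies at a median of 12 UMIs for MAPK and 3 for AP-1, while 60 nM cells inside it lie at 13 and 10.

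Contractile genes of smooth muscle were lower in cluster 0 for all 8 measured members of 13, each past 2-fold, and the median of their log2 ratios was -3.78. TAGLN, which encodes the actin-binding protein transgelin (chr11:117199321-117204782, plus strand), was at 50.4 CPM in cluster 0 and 1334 CPM in the other cells (26.5-fold lower, 22.7 to 31.0). ACTA2, the gene of smooth muscle actin, was at 20 and 337 CPM (16.8-fold, 13.2 to 21.8), MYL9 at 20.6 and 300.2 CPM (14.5-fold) and LMOD1 at 1.21 and 32.1 CPM (26.4-fold). Thinned medians were 4 UMIs per cell in clusters 0, 1 and 2, 6 in cluster 3, and 16, 50, 20 and 34 in clusters 4 to 7. By summed counts the low level was shared with cluster 1 and less with cluster 2. Against cluster 2 all 7 measured genes lay below 0, 4 of them past 2-fold, with a median of -1.14. TAGLN was at 29.9 CPM in cluster 1 and 271 CPM in cluster 2. Among 22 matrix and mesenchymal genes, 16 were measured, 2 were higher and 4 lower by 2-fold, and the median log2 ratio was -0.23. FN1, which encodes fibronectin and is one of the lower members, was at 26.7 against 139 CPM (5.21-fold lower). Summed over all its genes, the matrix list was higher in cluster 0, at 7882 CPM against 5555 CPM in the other listed cells. In cluster 1 that sum was 7847 CPM. TGFB2, which belongs to the YAP and TEAD list below, was at 9.41 against 40.9 CPM.

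Lineage genes were mixed. Of 16 melanocyte genes 7 were measured, with 2 higher, 1 lower and a median of -0.58: SOX10, the neural crest and melanocyte factor, was at 287 against 120.1 CPM (2.39-fold higher), OCA2, a melanosome transporter gene, at 31.3 against 9.32 CPM (3.36-fold higher), MITF at 72.5 against 133 CPM (1.84-fold lower) and DCT lower as given above. Of 16 neural crest genes 13 were measured, 3 higher and 4 lower, with a median of -0.66. NES, which encodes the intermediate filament nestin, was at 129.6 against 32.9 CPM (3.94-fold higher), while NGFR, the neural crest receptor gene, was at 1.21 against 14.5 CPM (11.9-fold lower, 4.64 to 43.9). The list of SOXC factors and neuronal adhesion genes that holds relatives of the markers had 1 member higher and 2 lower among 12 measured and a median of 0.12, close to all genes.

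FTH1, the ferritin heavy chain gene that stores iron, was at 3102 CPM in cluster 0 and 14385 CPM in the others (4.64-fold lower, 4.55 to 4.73), and the light chain gene FTL at 2802 and 4746 CPM (1.69-fold lower). The 11 measured genes of antigen presentation by MHC class I were all below 0, 2 of them by 2-fold, with a median of -0.61. B2M, its invariant chain gene, was at 871 and 1594 CPM (1.83-fold lower), and HLA-B at 148 and 249 CPM (1.69-fold lower, 1.54 to 1.85). For the interferon response list, 14 of 15 measured members lay below 0, 3 of them past 2-fold, around a median of -0.58. IFITM3, a membrane protein gene that restricts viruses, was at 156 and 339 CPM, and ISG20, an exonuclease gene of the same list, was 2.93-fold higher, at 293 CPM. TXNIP, which encodes a thioredoxin-binding protein, was at 30.7 CPM in cluster 0 and 464 CPM in the others. Of the other stress lists, ATF4 targets had a median of -0.78 with 3 of 10 measured genes 2-fold lower, and p53 targets -0.21 with 3 of 12. The YAP and TEAD list had a median of 0.37, although 4 of its 14 measured genes were 2-fold lower and 0 higher.

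Although listed cells were low for cycle genes, the remaining signal was higher in cluster 0. Among 26 G2 and M-phase genes 11 were measured, 4 were 2-fold higher, 0 lower, and the median log2 ratio was 0.88. The S-phase list had 14 measured, 2 higher, 0 lower and a median of 0.33. MKI67 was at 28.5 against 5.06 CPM (5.64-fold, 4.38 to 7.22), CENPF, a kinetochore gene, at 71.0 against 33.7 CPM (2.11-fold), TYMS, the thymidylate synthase gene, at 73.4 against 25.5 CPM (2.88-fold) and MCM4, a helicase subunit gene, at 39.2 against 18.3 CPM (2.14-fold). The lists for MYC and ribosome biogenesis (median 0.50, 12 of 14 above 0) and for cholesterol and fatty acid synthesis (0.34, 15 of 16 above 0) lay above all genes, but 0 and 1 members respectively were past 2-fold. The member past it was FASN, the fatty acid synthase gene, at 101 against 40.8 CPM (2.48-fold). Glycolysis (0.19), NRF2 targets (0.10), heat shock genes (-0.06) and mitochondrial transcripts (-0.09) had medians near that of all genes. For glycolysis all 13 measured members lay above 0, with 0 past 2-fold. The median of all measured genes was itself above 0 (0.10), so counts above 0 alone do not set a list apart from all genes. Past 2-fold, CDK6 (370 against 174 CPM, 2.13-fold) and CDKN1C (42.8 against 10.4 CPM, 4.13-fold), a kinase and an inhibitor of the G1 phase, were higher, and the inhibitor gene CDKN2C was lower, at 58.6 against 126 CPM.

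Clusters 1 and 2 were the nearest to cluster 0. The root mean square of the log2 ratios was 0.40 to cluster 1, 0.61 to cluster 2 and between 0.75 and 1.14 to clusters 3 to 7. Against cluster 1, 103 of 9491 genes were 2-fold higher in cluster 0 (1.09%) and 157 lower (1.65%), with a median of 0.06. At 50 CPM the counts were 23 (0.543%) and 67 (1.58%). KCNIP4, a potassium channel partner gene, was at 31.3 against 3.44 CPM (9.09-fold higher, 5.87 to 14.6), and PCLAF, a replication factor gene, at 104 against 28 CPM (3.72-fold, 3.13 to 4.44). GRM8, a glutamate receptor gene, was at 21.2 against 182 CPM (8.58-fold lower, 6.75 to 11.1), and EGR1 at 27.0 against 169 CPM (6.25-fold lower, 5.04 to 7.84). JUNB was at 144 against 586 CPM (4.06-fold lower) and TXNIP at 30.7 against 142 CPM (4.62-fold lower). The AP-1 list had 7 of 9 measured genes 2-fold lower than cluster 1 and a median of -1.52, whereas the MAPK list (-0.18, 2 higher and 2 lower of 21) and the smooth muscle list (0.15, 0 of 7) did not share its size.

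Against cluster 2, 384 of 9608 genes were 2-fold higher (4.00%) and 371 lower (3.86%), with a median of 0.08, and at 50 CPM 159 (3.69%) and 167 (3.87%). CEMIP at 226 against 24.0 CPM (9.38-fold), the cadherin gene CDH13 at 745 against 125 CPM and SPRY4 at 181 against 33.8 CPM (5.37-fold) were higher in cluster 0. MGP, a matrix protein gene that restrains calcification, was at 36.1 against 753 CPM (20.9-fold lower, 17.4 to 25.2), and ANGPTL7 at 0.911 against 76.4 CPM (83.9-fold lower). The AP-1 list was again low, with 8 of 9 genes 2-fold lower and a median of -1.91. These comparisons share the cells of cluster 0, so the repeated low AP-1 values are not separate evidence.

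Because cluster 0 and the untreated culture largely coincide, the untreated cells were compared inside and outside the cluster, 343 against 99 cells. Inside it, 74 of 9078 genes were 2-fold higher (0.815%) and 119 lower (1.31%), with a median of 0.06. With only the untreated cells of cluster 1 outside, 156 were higher and 55 lower, and 52 of the 74 and 37 of the 119 were among them. Those outside cells held only 912727 UMIs, and a lower gene needed 20 of them, so low genes were admitted more readily as higher. In the crossed comparison described further on, which needs 50 CPM and an interval beyond 1-fold, the same cells gave 11 higher and 24 lower of 4644 genes. Against all 99 outside cells, 3 of the 4242 genes with at least 50 CPM were higher (0.0707%) and 35 lower (0.825%). CDKN1C was at 44.9 CPM inside and 12.1 outside (3.71-fold higher, 2.20 to 6.69), and MKI67 at 29.1 and 9.07 CPM (3.21-fold, 1.75 to 6.46). TXNIP was at 22.6 and 211 CPM (9.32-fold lower, 7.10 to 12.4), MGP at 36.7 and 214 CPM (5.83-fold, 4.65 to 7.35) and EGR1 at 13.4 and 63.5 CPM (4.75-fold, 3.21 to 7.13). All 8 measured AP-1 genes and all 8 MHC class I genes lay below 0, with medians of -0.88 and -0.55, of which 3 and 0 were past 2-fold. The MAPK list hardly differed, with a median of 0.12 and 0 of 20 genes higher and 1 lower. The marker ratios were 1.15 for NTM (0.891 to 1.49), 1.43 for SOX11 (1.01 to 2.07) and 1.14 for SHISA2 (0.786 to 1.68). The untreated cells outside were deeper, as given above, and the part of depth in these values was not tested.

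Part of this comparison depended on which outside cells were taken. TAGLN was at 28.5 CPM in untreated cells of cluster 0, 196 CPM in all untreated cells listed outside it (6.88-fold lower inside) and 20.8 CPM in those of cluster 1 alone. The smooth muscle list had 4 of 7 measured genes 2-fold lower inside and a median of -1.06, which became 0.40 with cluster 1 alone. GPC5 (24.7 against 102 CPM) rested on 1 outside cell that held 82 of its 135 UMIs, and without that cell the outside level was 40.5 CPM. Other genes kept their direction against untreated cells of cluster 1: ANGPTL7 was at 1.03 against 25.2 CPM (24.5-fold lower, 7.40 to 127), MGP at 36.7 against 204 (5.55-fold, 4.36 to 7.11), TXNIP at 22.6 against 114 (5.03-fold, 3.66 to 6.96) and EGR1 at 13.4 against 57.0 (4.26-fold, 2.76 to 6.63). JUNB was at 90.2 against 249 CPM (2.76-fold lower, 2.30 to 3.31), HLA-B at 126 against 248 CPM (1.97-fold lower, 1.66 to 2.34), and CDKN1C at 44.9 against 14.2 CPM (3.15-fold higher, 1.78 to 6.08). Unlisted untreated cells lay between the inside and outside values for TXNIP (83.4 CPM) and MGP (56.8 CPM).

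The 51 adapted cells of cluster 0 were then set against its 343 untreated cells. At the 10 CPM minimum 57 of 7444 genes were 2-fold higher in the adapted cells (0.766%) and 696 lower (9.35%), with a median of -0.25. The adapted side held only 378641 UMIs, where 3 UMIs amount to 7.92 CPM. Among the 4264 genes with at least 50 CPM the counts were 57 higher (1.34%) and 83 lower (1.95%). Immediate early genes led the higher ones. EGR1 was at 132 CPM in adapted and 13.4 CPM in untreated cells (9.87-fold, 6.37 to 15.4), and it was present in 31 of 51 adapted and 33 of 343 untreated cells. JUNB was at 559.9 and 90.2 CPM (6.21-fold, 5.16 to 7.47), in 46 of 51 and 171 of 343 cells. ZFP36, which encodes an mRNA decay factor, was at 63.4 and 7.89 CPM (8.04-fold), IER2 at 811 and 183 CPM (4.42-fold, 3.83 to 5.09) and FOS at 436 and 130.3 CPM (3.34-fold). Of 7 measured AP-1 genes 4 were past 2-fold and 0 lower, with a median of 1.38, and the 7 measured MHC class I genes were all above 0 with a median of 0.63. HLA-B was at 317 and 126 CPM (2.53-fold). SPRY4 was lower in the adapted cells, at 100.4 against 192 CPM (1.91-fold).

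Several of the other differences rested on few cells. TAGLN was at 219 CPM in adapted and 28.5 CPM in untreated cells of cluster 0 (7.70-fold, 5.61 to 10.6), but 1 adapted cell held 53 of the 83 UMIs and the level without it was 81.6 CPM. ACTA2 was at 73.9 and 13.0 CPM, and 18 of its 28 adapted UMIs lay in 1 cell, without which it was at 27.2 CPM. EGR1 and JUNB did not rest on 1 cell: without the cell with most UMIs they stood at 121 and 524 CPM. KCNT2 and KCNIP4, channel genes at 45.6 and 35.0 CPM in untreated cells, had 1 UMI each in the adapted ones (2.64 CPM). The median depth was 7165 UMIs in adapted and 8319 in untreated cells of the cluster.

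Of the adapted populations 60 nM alone had more than 6 cells in cluster 0, and its 38 cells were compared with the 868 listed cells of 60 nM outside it. At 10 CPM 25 of 6901 genes were higher (0.362%) and 950 lower (13.8%), the inside total being 277077 UMIs with 3 UMIs at 10.8 CPM. At 50 CPM the counts were 25 (0.657%) and 152 (4.00%) of 3804. PCLAF was at 134 inside and 32.1 CPM outside (4.17-fold, 2.86 to 5.91), PTTG1, the securin gene, at 256 and 78.6 CPM (3.26-fold), and STMN1, a microtubule regulator gene, at 224 and 95.9 CPM. These 3 genes are in neither cycle list. Of the S-phase list 5 genes were measured, all below 0 (median -0.53). Of the G2 and M-phase list 2 were measured, both below 0 (median -0.65). With so few UMIs inside, genes of low level were measured more readily when lower inside, so these medians cannot give the direction of the lists. Summed over all its genes, the S-phase list was at 397 CPM in 60 nM cells inside and 331 CPM outside. The summed G2 and M-phase list was at 365 CPM inside and 259 CPM outside. CADM2 had 0 UMIs inside and 99.4 CPM outside, at least 9.18-fold lower against a floor of 3 UMIs over the group. The AP-1 list, low in cluster 0 as a whole, had 0 of 9 genes past 2-fold here and a median of -0.33, against -0.28 for all genes. Between the untreated and the 60 nM comparisons, 30 of 5060 genes measured in both were past 2-fold in the same direction and 0 in opposite directions. All of the 30 but PCLAF were lower inside. Among 60 nM cells far fewer genes could be called higher than lower, so these 2 counts do not measure agreement. TXNIP was among the 30 genes, at 61.4 inside (17 UMIs) and 409 CPM outside in the 60 nM population, as was MGP at 28.9 (8 UMIs) and 186 CPM. Both differences were smaller against 60 nM cells of cluster 1 alone, where TXNIP was at 91.6 CPM (log2 ratio -0.57) and MGP at 71.0 CPM (-1.27).

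Cluster and population were then crossed. The clusters were made from the expression of these cells, so differences between clusters 0 and 1 are a description of that clustering. Ratios were taken over 4644 genes with at least 50 CPM in any of the 4 groups formed by untreated and 60 nM cells of clusters 0 and 1, and a gene was counted when past 2-fold with a counting interval beyond 1-fold. Untreated cells of cluster 0 were higher than untreated cells of cluster 1 for 11 genes (0.237%) and lower for 24 (0.517%). For 60 nM cells the numbers were 43 (0.926%) and 143 (3.08%). Between untreated and 60 nM cells of cluster 0, 138 genes were higher in the untreated (2.97%) and 71 lower (1.53%), and in cluster 1 the numbers were 10 (0.215%) and 28 (0.603%). Cluster 0 was higher in both populations for 5 genes and lower for 9, and untreated cells were higher in both clusters for 6 genes and lower for 18. FOXP1 and FAM155A were counted along both, as higher in cluster 0 and lower in untreated cells.

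**Figure D5:**
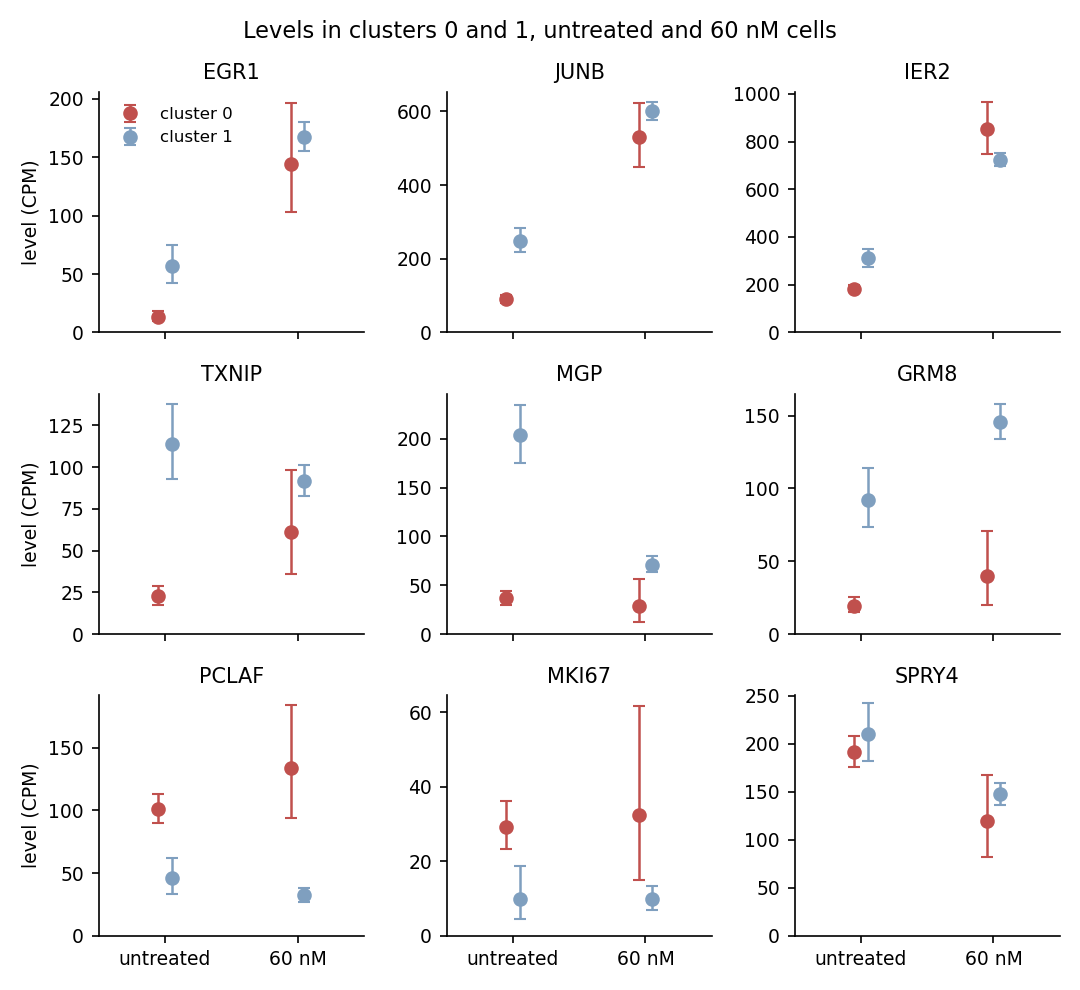
Levels of 9 genes in CPM on linear axes from 0, with 95% exact Poisson intervals, in untreated and 60 nM cells of cluster 0 (red) and cluster 1 (blue). EGR1 and JUNB separate the populations in both clusters (JUNB 90.2 and 531 CPM in cluster 0), while MGP and PCLAF separate the clusters in both populations.

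EGR1 ran with the population more than with the cluster: it was at 13.4 CPM in untreated and 144 CPM in 60 nM cells of cluster 0, and at 57.0 and 168 CPM in those of cluster 1. JUNB was at 90.2 and 531 CPM in cluster 0 and at 249 and 601 CPM in cluster 1. IER2 was at 183 and 852 CPM in cluster 0 and at 310.1 and 725 CPM in cluster 1, and FOS at 130.3 and 433, then 199 and 475 CPM. The untreated cells of cluster 0 were the lowest of the 4 groups for each of these 4 genes. Per cell, the AP-1 list had thinned medians of 3 UMIs in untreated and 10 in 60 nM cells of cluster 0, and of 5 and 12 in cluster 1. The MAPK list, in contrast, had medians of 12 and 13 in cluster 0 and 14 and 14 in cluster 1. SPRY4 was at 192 and 119 CPM in cluster 0 and at 210.4 and 147 CPM in cluster 1. With 1 culture per population, the effect of adaptation cannot be told apart from a difference between those cultures.

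Other genes followed the cluster. MGP was at 36.7 CPM in untreated and 28.9 CPM in 60 nM cells of cluster 0, against 204 and 71.0 CPM in cluster 1. GRM8 was at 19.5 and 39.7 CPM in cluster 0, against 92.0 and 146 CPM in cluster 1, and SOD3, an extracellular superoxide dismutase gene, at 19.5 and 54.1, against 73.4 and 130.3 CPM. WEE1, a kinase gene that holds back mitosis, DUSP5, PTPRZ1, TRAF1, TRMT12 and ANKRD42 were also lower in cluster 0 in both populations. In 60 nM cells of cluster 0 each of these rested on 4 to 7 UMIs, MGP on 8 and GRM8 on 11. PCLAF was higher in cluster 0 in both, at 101 and 134 CPM against 46.0 and 32.3 CPM, and was present in 20 of the 38 cells of 60 nM. The other 4 genes counted as higher in both, FOXP1, TENM2, CNTN5 and FAM155A, were present in 4, 2, 2 and 3 of these 38 cells. In untreated cells of cluster 0, 1 cell held 76 of the 118 UMIs of CNTN5, whose level was 40.5 CPM with that cell and 14.5 CPM without it. Against all listed cells outside cluster 0 CNTN5 was lower inside in both populations, at 40.5 against 128 CPM in untreated and 57.7 against 156 CPM in 60 nM cells, so it did not follow the cluster. Among untreated cells the other 3 were also lower inside than in all listed cells outside: FOXP1 was at 13.0 and 32.5 CPM, TENM2 at 33.3 and 46.1 CPM and FAM155A at 59.0 and 231 CPM. CDKN1C followed the cluster in untreated cells, at 44.9 against 14.2 CPM, and not in 60 nM cells, at 32.5 against 40.2 CPM. TAGLN was at 282 CPM in 60 nM cells of cluster 0 and at 28.5, 20.8 and 25 CPM in the other 3 groups, where the 1 cell named above enters the first value.

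The ratios of cluster 0 to the other clusters were also read along the chromosomes, for 9678 measured genes with 1 position. On chromosome 11 the median log2 ratio, less that of all genes, was 0.01 to cluster 1 and -0.06 to cluster 2, and then -0.31, -0.16, -0.33, -0.42 and -0.55 to clusters 3 to 7. For genes that start before position 35000000 it was -0.04, -0.17, -0.45, -0.46, -0.60, -0.62 and -0.74 to clusters 1 to 7. Cluster 0 was thus lower along this stretch as a block against clusters 3 to 7 and hardly against cluster 1. Against cluster 2 the difference was smaller, with 63.2% of the genes of the stretch below 0. In that comparison 42.6% of the genes on the rest of chromosome 11 lay below 0. On the other chromosomes the share ran from 30.6% (chromosome 21) to 46.9% (chromosome 4). In untreated cells of clusters 0 and 1 the difference of chromosome 11 was 0.00. Other chromosomes moved as well: chromosome 2 by -0.43 to cluster 5, chromosome 1 by 0.27 and chromosome 18 by -0.29 to cluster 6, and X by -0.30 to cluster 7. Chromosome 11 was singled out after the values were seen, and no cause was tested.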

How the data were processed

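Single-cell RNA libraries of pooled A375 populations were analysed. The authors deposited unnormalised UMI counts for each gene in each cell, per the labels. The authors' cell table gives the cluster and the mitochondrial percent of listed cells, per the file headers. Cell Ranger 7.0.0 and GRCh38 appear in the submitters' processing notes, and other steps are not given in the sources used here. Populations were read from the cell names.

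Counts were summed over the cells of a group and scaled to CPM with Python 3.11.15, numpy 2.4.6, pandas 2.3.3 and scipy 1.17.1, and plotted with matplotlib 3.10.9. A fold is a ratio of CPM, with a 95% exact binomial (Clopper-Pearson) interval of the counts, and a level has an exact Poisson interval. Depth was 3294778 UMIs in cluster 0 and 42511422 in the other listed cells. Calls used log2(CPM + 1). Named genes were up to 12 per direction by fold with at least 25 CPM, up to 4 members per list, and members of the crossed comparison. TMM factors came from edgeR 4.0.16 in R 4.3.3, with no edgeR test. No doublet caller was run, and an alternative left out cells over 2 times the median UMIs of their population. Tables were checked on simulated data. The cluster, the 28 lists (393 genes) and the rules were chosen with earlier results of these data known. The 60 nM, crossed, chromosome and 1-cell comparisons were added after seeing the data.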

Additional observations from a re-analysis of the deposited data

How the results depend on the processing

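Over all alternatives, 558 list medians moved by less than 0.25 in log2, 19 moved further and 1 past 2-fold changed sign. Only the MAPK, AP-1, smooth muscle, MHC class I, interferon, S-phase, G2 and M-phase, MYC, mitochondrial and glycolysis lists were varied. The medians of the other lists were not. The 3-fold and interval rules cannot change a list median, so the 59 medians under each stayed by construction. Of the gene ratios, 6580 stayed within the counting interval of the reported value, 259 left it and 7 past 2-fold changed sign. The 6580 include ratios that could not move. The 3-fold, 50 CPM, no CPM filter and interval rules change which genes are counted and not their ratios. Under each of these rules all 685 ratios stayed by construction. The 8 shares of cells with a UMI moved between thinned and full counts.

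With a pseudocount of 5 CPM the higher and lower counts were 59 higher against cluster 1, 254 higher against cluster 2, 13 and 72 for untreated cells inside against outside, and 431 lower for adapted against untreated cells. With no CPM filter they were 890 lower against all others, 255 lower against cluster 1, 117 higher for untreated cells and 1880 lower for 60 nM cells. At 50 CPM they were 159 and 161 against all others, 23 and 67 against cluster 1, 159 and 167 against cluster 2, 3 and 35 for untreated cells, 83 lower for adapted cells and 152 lower for 60 nM cells. At 3-fold they were 58 and 235, 23 and 54, 122 and 160, 5 and 41, 18 and 254, and 2 and 415 in the same order of the 6 comparisons. An interval beyond 1-fold left 303 lower for adapted and 350 lower for 60 nM cells, and the mean of per-cell CPM gave 41 higher for 60 nM cells. The cause was not tested, apart from the smaller or larger number of genes these rules admit.

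With only cluster 1 outside, untreated cells gave 156 higher and 55 lower, and the signs turned for the smooth muscle median (0.40) and the log2 ratios of GPC5 (0.86), MPP7 (1.63), NUPR1 (1.30), POSTN (1.24), TAGLN (0.43) and TRPC4 (1.40), and in 60 nM cells FAP (0.23). The fewer UMIs outside admit fewer genes as lower, as given above, and the cause of these changes was not tested.

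The limits are 1 culture per population, intervals of counting error only, and 51 adapted cells in the cluster, where genes under 50 CPM rest on few UMIs. The planned comparison of each adapted population inside and outside cluster 0 needed 50 cells and could not be run, as the largest had 38. No paired analysis was possible because each population was 1 culture with no replicate number.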
